A study of Mus musculus with 2 samples.

Results

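The simple epithelial keratins followed here were the type II keratins Krt7 and Krt8 and the type I keratins Krt18, Krt19 and Krt20. These 5 genes were picked by name and not by their values, though with earlier results of these data known. They are 5 of 31054 features counted in the normal library and 32285 in the wounded library. Both libraries held single cells of the anorectal junction of C57/BL6J mice, and each was made once from at least 5 pooled mice of both sexes. All mice carried K17CreERT2;R26RGFP, in which the Krt17 promoter drives a recombinase that switches on a green reporter after tamoxifen, and all were given tamoxifen for 2 days. The normal library came from unwounded mice. The wounded library came from mice whose rectal crypts beside the junction were removed on the following day with hot EDTA and an electric brush. These mice were sampled 1 week after the wound. Cells were sorted on Epcam, with CD45, CD11b, CD31 and PDGFRa cells and doublets gated out. No mouse could be told from another, so no value below has a spread between animals and no test was possible. A level is the number of unique molecular identifiers (UMIs) of a gene per 1000000 UMIs of the same cells (CPM), and its 95% interval, like all intervals here, covers counting error only.

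Keratin filaments are built from obligate pairs of a type I and a type II keratin. Krt8 and Krt18 form the basic pair of single-layered epithelia such as the gut lining, with Krt19 as a second type I partner and Krt20 as a marker of differentiated surface cells, while Krt7 marks ducts, glands and transitional linings. In stratified squamous epithelium their place is taken by Krt5 and Krt14 in the basal layer and by Krt1, Krt10, Krt4 or Krt13 above it, so an anorectal junction brings the keratin sets side by side.

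The submitters named 4 clusters in the normal library (Anal Canal, Basal, Suprabasal and Rectum) and 6 in the wounded library (Basal, Suprabasal, Regeneration, Wound_Stress, Rectum and Hybrid). These tables held 939 of the normal and 4147 of the wounded cells, with median depths of 9724 and 10077 UMIs, and left out 610 and 1078 other cells that passed the stated filters. Of 12 markers of columnar rectal cells, 11 had at least 10 UMIs in Rectum of either library, as in wounded Suprabasal, Regeneration and Hybrid. Their summed levels in Rectum were 10919 CPM in the normal and 7999 CPM in the wounded library. The other normal clusters had 61.8 to 128 CPM, and the other wounded clusters 139 CPM (Regeneration) to 1022 CPM (Hybrid). The name Basal in the wounded library fitted its markers only in part. All 7 markers of the stratified basal layer were detected there, as in every other wounded cluster. They summed to 13189 CPM against 10989 in normal Basal, with Krt14 at 8434 against 5400 CPM. But the suprabasal markers summed to 10054 against 378 CPM. The cluster held 1987 CPM of Krt10 and 1443 CPM of Krt13, keratins of the upper layers, where normal Basal held 48.4 and 2.96 CPM, and 554 of its 573 cells fell in a cluster of all wounded cells led by Sprr2d, Ppbp, Ltf and Psca. Krt10 and Krt13 in normal Anal Canal were at 2228 and 812 CPM. The cluster is called wounded Basal below as a label only. No cell barcode of the named cells was shared between the libraries.

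Krt7, Krt8 and Krt18 lie in the type II keratin cluster of chromosome 15, Krt18 being the type I gene placed there beside its partner. In GRCm38 with GENCODE M21, Krt7 spans chr15:101411043-101430313 on the plus strand, Krt8 chr15:101996698-102004482 on the minus strand and Krt18 chr15:102028180-102032027 on the plus strand, and Krt8 and Krt18 are 23.7 kb apart with their starts facing each other. Krt19 (chr11:100140810-100148665) and Krt20 (chr11:99428403-99438150), both on the minus strand, lie in the type I cluster of chromosome 11. Gm671 overlaps Krt7 on the other strand and Gm36026 overlaps Krt8, and 1 pseudogene, Krt8-ps, is named after Krt8. UMIs of near-identical copies may be split or dropped, which was not tested.

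The promoters of Krt8 and Krt18 are shown because their levels followed each other most closely of all the pairs. That of Krt7 is shown because its levels parted from those of Krt8, in the same keratin cluster. Each line gives 300 bases, 250 before and 50 after the RefSeq start (GRCm38.p6, read along the gene), at chr15:102004293-102004592 for Krt8, chr15:102027966-102028265 for Krt18 and chr15:101412153-101412452 for Krt7. Capitals mark matches to the TATA box TATAAA or the GC box GGGCGG on either strand.
Krt8: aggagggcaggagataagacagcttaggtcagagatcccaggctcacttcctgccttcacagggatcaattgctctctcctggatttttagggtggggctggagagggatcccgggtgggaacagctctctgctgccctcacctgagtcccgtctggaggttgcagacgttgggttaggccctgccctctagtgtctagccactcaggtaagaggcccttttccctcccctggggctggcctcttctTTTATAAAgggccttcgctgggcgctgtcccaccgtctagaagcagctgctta
Krt18: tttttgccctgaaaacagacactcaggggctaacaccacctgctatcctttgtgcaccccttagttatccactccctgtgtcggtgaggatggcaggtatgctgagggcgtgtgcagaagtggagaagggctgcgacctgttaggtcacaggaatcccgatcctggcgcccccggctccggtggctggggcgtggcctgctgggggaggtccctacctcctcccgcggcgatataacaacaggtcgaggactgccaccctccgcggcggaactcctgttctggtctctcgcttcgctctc
Krt7: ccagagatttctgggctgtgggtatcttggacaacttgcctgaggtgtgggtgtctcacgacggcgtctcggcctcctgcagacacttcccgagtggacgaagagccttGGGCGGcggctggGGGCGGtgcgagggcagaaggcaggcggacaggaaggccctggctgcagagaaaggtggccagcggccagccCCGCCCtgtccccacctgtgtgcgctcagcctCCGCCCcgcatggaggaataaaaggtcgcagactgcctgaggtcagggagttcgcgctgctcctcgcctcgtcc
The Krt7 window held 4 GC boxes, at 141, 128, 56 and 24 bases before the start, a motif found in 35.7% of 32851 windows of this length. The Krt8 window held 2 overlapping TATA matches, on opposite strands, beginning 3 and 1 bases before the start, a motif found in 13.6% of windows, and the Krt18 window held neither. The AP-1 motif TGANTCA, found in 7.8% of windows, was in none of them. These distances hold for the RefSeq start only. For Krt8, Krt18 and Krt7 that start lies inside the GENCODE span of the gene given above, as do the Krt8 TATA matches. The Krt7 window lies wholly inside its span. Where transcription starts in these cells was not tested. A match of letters says nothing of binding, and the windows carry no measurement of these libraries.

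Krt8, the type II keratin of the simple pair, was highest in Rectum of both libraries, a cluster that the study named partly from Krt8. In the normal library it was detected in 63 of 63 Rectum cells, with a median of 1761 CPM per cell, and its level outside Rectum ran from 119 CPM (95% interval 105 to 134) in Suprabasal through 78.0 in Basal to 25.3 in Anal Canal. In the wounded library it was at 2386 CPM (2339 to 2434) in Rectum, 430 in Hybrid, 131 (125 to 138) in Suprabasal, 54.1 in Regeneration, 36.6 in Wound_Stress and 27.5 in wounded Basal. No pair of neighbours in these orders had a ratio whose interval held 0 on the log2 scale. The Anal Canal level was set by few cells, since of the 111 Krt8 UMIs in Anal Canal, 76 came from 1 cell, which also held 16 of the 77 Krt18 UMIs and 153 UMIs of the basal keratin Krt14.

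Fibroblast-like cells gave a level against which the lower of these can be set. Among the left-out wounded cells, 187 were fibroblast-like, with all 8 fibroblast markers detected and a median of 7766 UMIs. They carried 67.4 CPM of Krt8 (55.2 to 81.5), and the Krt8 of Regeneration, Wound_Stress and wounded Basal lay at or under it. This was a high level among left-out cells. All 1078 left-out wounded cells together held 32.8 CPM (29.6 to 36.2). Regeneration, at 54.1 CPM, and Wound_Stress, at 36.6 (32.4 to 41.2), were above that value, and wounded Basal, at 27.5, was under it. Those 1078 cells also held 7.42 CPM of Krt18, 22.6 of Krt19 and 5.81 of Krt20, each under the fibroblast-like level given below. Whether the Krt8 UMIs of those 3 clusters are stray RNA or expression was not tested. With every cell thinned to 2000 UMIs, Krt8 was seen in 8.29% of 181 fibroblast-like cells, in 8.42%, 7.46% and 3.72% of cells of those 3 clusters, and in 17.4% of 1020 wounded Suprabasal cells, whose median depth was 10594 UMIs; without thinning the shares were 15.0%, 31.8%, 20.1%, 14.0% and 46.5%. Thinning left out 12 Suprabasal cells and 6 fibroblast-like cells as too shallow. In the normal library, 65 left-out cells led by Tmem119, Pdgfra and Tcf21 (median 6120 UMIs) carried 10.2 CPM of Krt8 (2.77 to 26.0), with a UMI in 4.62% of cells, and after thinning in 0 of 58, a count that a share as high as 5.17% (3 counts of 58) could give. The normal Suprabasal share, 19.7% of 183 thinned cells and 44.9% before thinning, was above that limit.

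Krt7, the type II keratin of ducts and glands, followed another order. In the normal library Anal Canal led with 397 CPM (378 to 416), followed by Rectum with 131 (105 to 160), Basal with 33.6 and Suprabasal with 9.64. In the wounded library wounded Basal had 379 CPM (363 to 395) and Rectum 336 (319 to 355), then Hybrid 86.3, Suprabasal 7.34, Wound_Stress 2.41 and Regeneration 1.85, of which only Wound_Stress and Regeneration could not be told apart (log2 ratio 0.39, −0.58 to 1.33). Fibroblast-like cells had 6.36 CPM, with an interval of 3.05 to 11.7, so the last 3 levels lay within or under it. Krt7 was thus the member whose rectal level was matched or passed by a stratified cluster in both libraries.

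**Figure D1:**
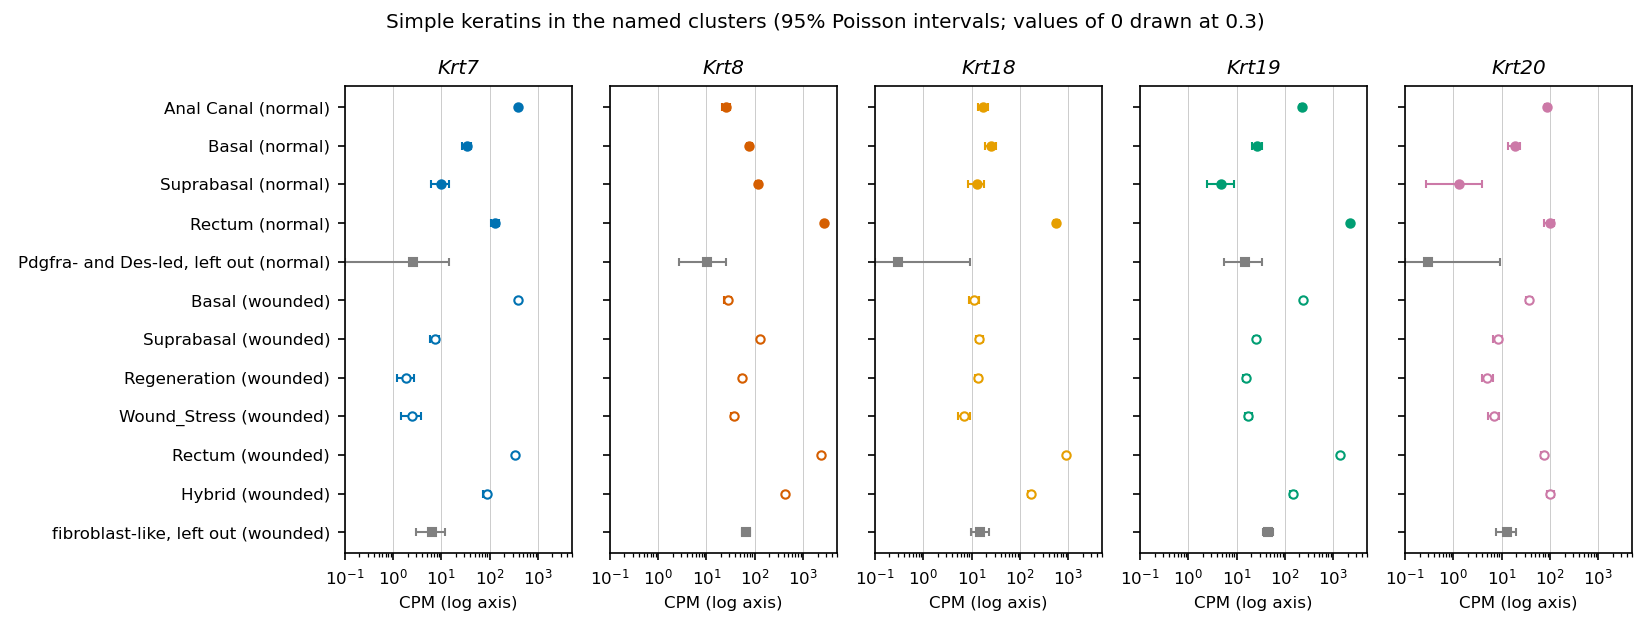
Level of each of the 5 keratins (CPM, log axis) in each named cluster of the normal and wounded library and in the left-out cells that carry fibroblast or smooth muscle markers (squares), with exact Poisson 95% intervals and values of 0 drawn at the left. Krt8, Krt18 and Krt19 are highest in Rectum of both libraries, and Krt7 is highest in normal Anal Canal (397 CPM) and wounded Basal (379 CPM).

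Krt18, the type I partner of Krt8, was above 100 CPM in Rectum and Hybrid and under 25 CPM in the other named clusters. It was at 575 CPM (520 to 634) in normal Rectum and between 12.7 and 24.8 in the other 3 normal clusters, of which Anal Canal and Suprabasal could not be told apart (log2 ratio 0.47, −0.17 to 1.14). In the wounded library it was at 924 CPM (895 to 954) in Rectum, 170 (150 to 192) in Hybrid and between 7.10 and 14.6 in the other 4, with 15.2 in fibroblast-like cells. The ratios of Suprabasal to Regeneration and of Regeneration to wounded Basal had intervals that held 0.

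Krt19, the small type I keratin that can pair with Krt8, was at 2266 CPM (2157 to 2380) in normal Rectum and 1399 (1363 to 1436) in wounded Rectum. Outside Rectum it was at 224 CPM (210 to 239) in Anal Canal, 26.6 in Basal and 4.82 in Suprabasal of the normal library. Among wounded clusters it was at 234 CPM (222 to 247) in wounded Basal, 146 in Hybrid, 25.4 in Suprabasal, 17.6 in Wound_Stress and 15.6 in Regeneration, the last pair not distinguishable (log2 ratio 0.17, −0.16 to 0.49) and the last 3 under the 44.5 CPM of fibroblast-like cells. So Krt19 was highest in Rectum, as Krt8 was, and next highest in the stratified cluster where Krt7 was highest.

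Krt20, the keratin of mature surface colonocytes, was carried by few cells. It stood at 98.0 CPM (76.2 to 124) in normal Rectum and 86.5 (78.0 to 95.7) in Anal Canal, a log2 ratio of 0.18 whose interval (−0.21 to 0.55) held 0, at 18.5 in Basal and at 1.31 in Suprabasal. In normal Rectum it was found in 9 of 63 cells, and 95.6% of its UMIs lay in the tenth of cells that held most of them (7 cells), against 35.5% for Krt8 in the same cells. In the wounded library Hybrid (102 CPM) was above Rectum (74.2) by a log2 ratio of 0.47 (0.18 to 0.75), followed by wounded Basal (36.2). Of the 305 Krt20 UMIs of wounded Rectum, 93 were in 1 cell. Suprabasal, Wound_Stress and Regeneration lay between 5.08 and 8.21 CPM with neighbours not distinguishable, under the 12.7 CPM of fibroblast-like cells.

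The makeup of the 5 keratins, which does not depend on their total, sorted the clusters into a few forms. In normal Rectum, Krt8 gave 47.2% and Krt19 39.0% of the 4092 UMIs of the 5 genes, and Krt7 2.25%. In Anal Canal, Krt7 gave 52.9% and Krt19 29.9% of 3287 UMIs, and Krt8 3.38%. In normal Suprabasal, Krt8 alone gave 80.7% of 337 UMIs. Wounded Basal (Krt7 55.1%, Krt19 34.0%, Krt8 4.0% of 3948 UMIs) had nearly the makeup of normal Anal Canal, and wounded Suprabasal (Krt8 70.3% of 2163 UMIs) came closest to normal Suprabasal. The Krt8 UMIs counted per Krt18 UMI numbered 9.38 (6.38 to 14.3) in normal and 8.99 (7.67 to 10.6) in wounded Suprabasal, 4.76 (4.28 to 5.32) in normal and 2.58 (2.49 to 2.68) in wounded Rectum, and 8.54 (7.64 to 9.57) in 93 of the wounded Rectum cells, those led by Ly6m. Krt18 in wounded Suprabasal, 14.6 CPM, was at the level of fibroblast-like cells. These ratios compare clusters, since UMIs of different genes need not be captured alike.

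**Figure D2:**
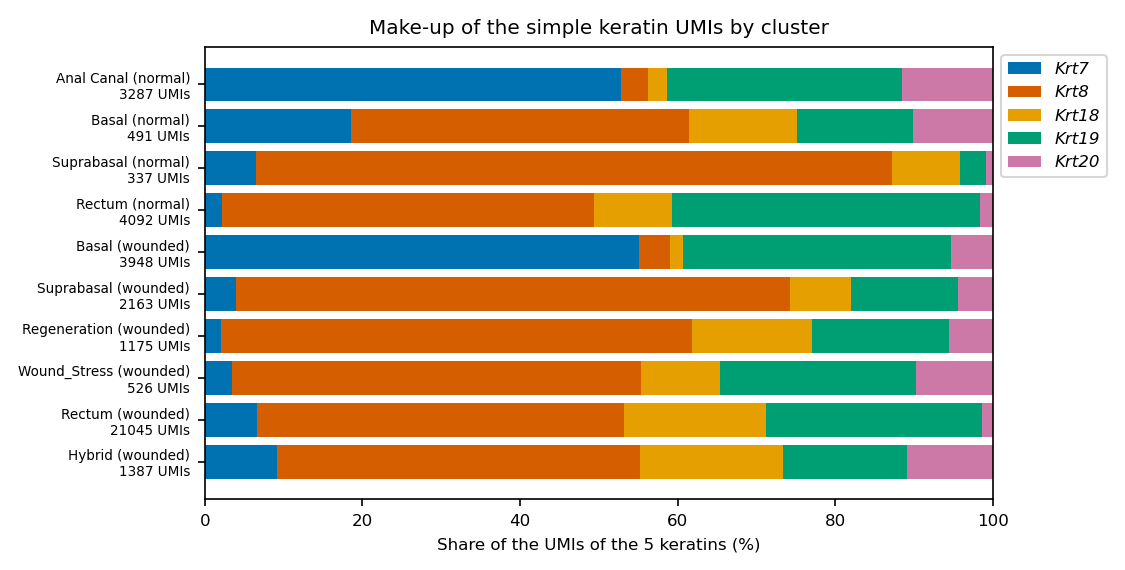
Percent of the summed UMIs of the 5 keratins that each gene gave, in each named cluster of both libraries, with the number of UMIs beside each bar. Krt7 gives 52.9% in normal Anal Canal and 55.1% in wounded Basal, and Krt8 gives 80.7% in normal Suprabasal and 47.2% and 46.6% in Rectum of the normal and wounded library.

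Anal Canal, the stratified lining at the outer side of the junction, was not even in these keratins. Clustered on its own with the 5 genes kept out, it fell into 319 cells led by Ltf, Calcb, Mal, Fxyd4 and Sptssb and 113 led by Sprr2f, Ccer2, Serpinb3a and Stfa1. The Ltf-led cells had 521 CPM of Krt7 (496 to 547), 310 of Krt19 (291 to 331) and 118 of Krt20 (106 to 130), and the Sprr2f-led cells had 80.2 (65.2 to 97.6), 4.05 (1.31 to 9.45) and 6.48 (2.80 to 12.8). They made up 73.8% of the cells and held 94.3% of the Krt7, 99.5% of the Krt19 and 97.9% of the Krt20 UMIs. The Ltf-led cells also held 99.4% of the UMIs of Krt13, the type I keratin of moist stratified linings, but 21.4% of those of Krt10, the keratin of the cornifying upper layers. Krt8 in the Ltf-led cells was 9.54 CPM (6.43 to 13.6).

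The cells with Krt19 were largely cells with Krt13. After thinning, 44 of 397 Anal Canal cells had a Krt19 UMI, and Krt13 was seen in 32 of them (72.7%, 57.2 to 85.0) against 21.0% (16.8 to 25.6) of the cells without Krt19. Krt20 was seen in 38.6% (24.4 to 54.5) against 4.82% (2.83 to 7.60), Krt10 in 15.9% (6.64 to 30.1) against 33.1% (28.2 to 38.3), and Krt8 in 1 of the 44. Without thinning, Krt19 was found in 17.8% of Anal Canal cells (median 8438 UMIs) and in 9.23% of the Tmem119-led cells, and 96.0% of its UMIs lay in 44 cells. Anal Canal held 2 markers of Merkel cells, touch receptors that are rich in Krt8 and Krt20, Isl1 at 53.4 and Sox2 at 36.1 CPM, but 8 UMIs of Atoh1 and none of Nefm or Rab3c.

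Wounded Basal was uneven too. It fell into 224 cells led by Grxcr2 and Krt71, 204 led by Stmn2, Emp3 and Dlk2, and 145 led by Sprr2d, Psca, Cnfn, Krt23 and Ltf. The last group, 25.3% of the cells, had 712 CPM of Krt7 (671 to 755), 797 of Krt19 (753 to 842) and 88.1 of Krt20 (74.0 to 104), and held 93.0% of the Krt19, 66.3% of the Krt20, 51.3% of the Krt7 and 91.2% of the Krt13 UMIs. Krt19 was at 13.1 CPM (8.97 to 18.5) in the Grxcr2-led and 35.8 (27.4 to 45.9) in the Stmn2-led cells, both under or within the fibroblast-like interval (34.7 to 56.2), while Krt7 was at 210 (192 to 229) and 316 (290 to 343), far above the 6.36 CPM of those cells. Among 46 thinned wounded Basal cells with Krt19, Krt13 was seen in 80.4% (66.1 to 90.6), against 25.9% (22.2 to 29.9) of the others. Krt10 was not divided as in Anal Canal, at 2127 CPM in the Sprr2d-led, 3255 in the Grxcr2-led and 76.2 in the Stmn2-led cells, with a UMI in 54.2% of 142, 42.5% of 221 and 9.45% of 201 thinned cells. The Grxcr2-led cells also had Krt25 among their leading genes. Their inner root sheath markers summed to 885.5 CPM, against 47.3 CPM in the rest of wounded Basal.

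**Figure D3:**
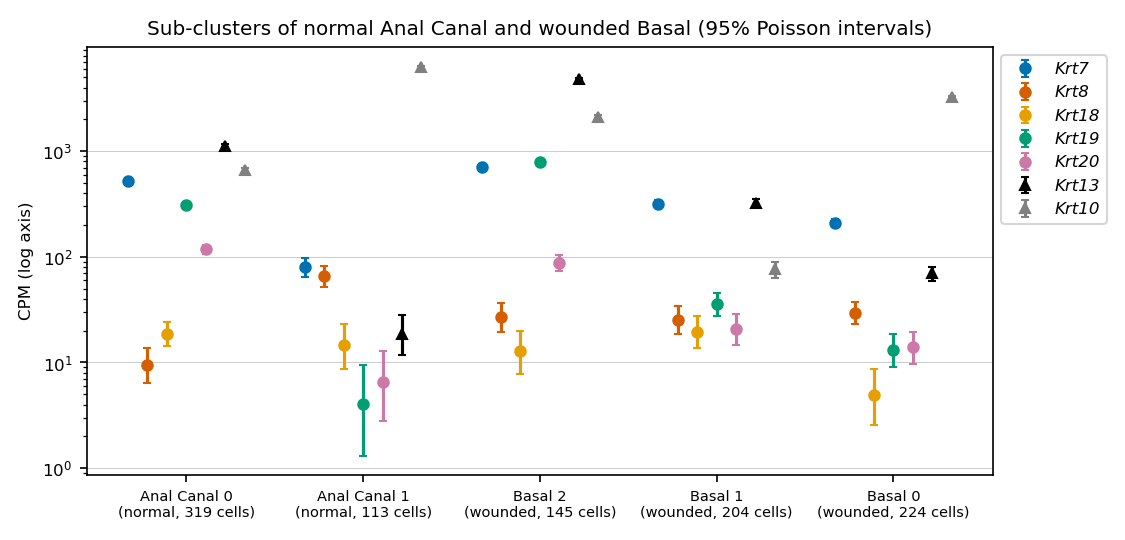
Level of the 5 keratins, and of Krt13 and Krt10 as triangles (CPM, log axis), in the sub-clusters of normal Anal Canal and of wounded Basal, formed without the 5 genes, with exact Poisson 95% intervals and the number of cells. Krt19 is at 310 CPM in the 319 Ltf-led Anal Canal cells and 797 CPM in the 145 Sprr2d-led wounded Basal cells, and at 4.05 to 35.8 CPM in the other sub-clusters.

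Suprabasal, which the study places above the basal layer of the transition zone, had Krt8 in cells that also had Krt17. The name is used here as a label. Duct or upper follicle markers summed to 105053 CPM in normal and 61450 CPM in wounded Suprabasal, of which Cst6 gave 87278 and 53234 CPM. Stratified suprabasal markers summed to 10168 and 4478 CPM there. Of 183 thinned normal cells, 36 had a Krt8 UMI, of which 35 had Krt17, a keratin seen in 179 of all 183. Of the wounded cells, 178 of 1020 had Krt8 and 160 of these Krt17, which 911 of all 1020 had. Whether Krt18 lay in the same cells cannot be read at its low level there. The number of Krt8 UMIs per UMI of Muc13, a mucin of the rectal lining, was 8.64 (7.38 to 10.2) in wounded Suprabasal against 3.65 (3.50 to 3.82) in wounded Rectum and 3.31 (2.21 to 5.09) in fibroblast-like cells, and normal Suprabasal held 272 Krt8 UMIs and no Muc13 UMI. In Regeneration this ratio was 4.85 (4.05 to 5.84) and in Wound_Stress 3.0 (2.36 to 3.85).

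Normal Basal owed much of its share of these genes to a handful of cells. When all normal cells were clustered without the 5 genes, 5 of the 257 Basal cells fell with the Rectum cells, and these held 15 to 116 UMIs each of Chga, a granule protein of enteroendocrine cells, and no Krt17 UMI. They carried 38.4% of the Krt8, 56.7% of the Krt18, 86.1% of the Krt19 and 92.0% of the Krt20 UMIs of the cluster. The other 252 Basal cells had 48.7 CPM of Krt8 (40.7 to 57.9), 24.7 of Krt7, 10.9 of Krt18, 3.75 of Krt19 and 1.5 of Krt20. This group was singled out after its values were seen.

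Hybrid, named for cells that combine Krt17 of the transition zone with Krt8 and Muc13 of the rectum, was the mixed cluster of the wounded library, and its median depth was 2390 UMIs. Its 5 keratins summed to 935 CPM against 353 CPM in wounded Basal and Suprabasal together, a log2 ratio of 1.41 (1.32 to 1.49) where the median of all 9412 genes was 0.23. Krt8 was higher by 2.15 (2.02 to 2.28), Krt18 by 3.65 (3.38 to 3.91) and Krt20 by 2.55 (2.26 to 2.84) on the log2 scale, Krt19 by 0.63 (0.42 to 0.84), and Krt7 lower, at −0.60 (−0.86 to −0.34). So 3 of the 5 were at least 2-fold higher, as were 9.48% of all genes with at least 100 UMIs. For Krt7 and Krt19 the pooled side joined unlike clusters, and Hybrid lay between them. Krt7 was at 379 CPM in wounded Basal, 86.3 in Hybrid and 7.34 in Suprabasal. Krt19 was at 234, 146 and 25.4 CPM in the same order.

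Most of these UMIs came from 59 Hybrid cells. Clustered on its own, Hybrid fell into 5 groups, and the 59 cells led by the hormone genes Pyy, Ppy, Gcg, Insl5 and Sst, called enteroendocrine-like from 8 of 8 markers detected, were 18.7% of the cells but held 57.8% of the Krt8, 81.7% of the Krt18, 85.5% of the Krt20, 66.4% of the Krt7, 27.2% of the Krt19 and 15.3% of the Krt17 UMIs. They held 43.1% of the Hybrid UMIs of all genes. Their levels were 577 CPM of Krt8 (520 to 639), 322 of Krt18 (280 to 369), 203 of Krt20 (170 to 241), 133 of Krt7 (106 to 164) and 92.2 of Krt19 (70.2 to 119). All 19 of the thinned cells with Krt18 there also had Krt8. Without this group the sum over Basal and Suprabasal was 0.85 instead of 1.41, with Krt8 at 319 CPM (282 to 359) and a log2 ratio of 1.72, and Krt18 at 54.5 CPM (39.9 to 72.8) and 2.01. Krt20 was then at 26.1 CPM (16.4 to 39.5), a log2 ratio of 0.58, and no longer 2-fold higher.

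A further 18 Hybrid cells held both Krt8 and Krt17. They were led by Acta2, Slpi, Sprr1a, Lypd8 and Cst6, had a median of 11030 UMIs, and carried 928 CPM of Krt8 (800 to 1070), 579 of Krt19 (480 to 694), 167 of Krt18 (116 to 233) and 2676 of Krt17. They held 29.6% of the Krt8, 54.4% of the Krt19 and 32.0% of the Krt17 UMIs of Hybrid in 18 of its 316 cells and 13.7% of its UMIs of all genes. Markers of several cell types were higher in these 18 cells than in the rest of Hybrid. Smooth muscle markers summed to 962 against 36.7 CPM, and duct or upper follicle markers to 21220 against 2869 CPM. Rectum columnar markers summed to 2764 against 744 CPM, and goblet markers to 1468 against 242 CPM. Whether the 18 cells were droplets with more than 1 cell was not tested. At least 3 UMIs of each of Krt8 and Krt17 were present in 24 Hybrid cells, of which 17 were among these 18 and 6 among the enteroendocrine-like cells. After thinning, Krt8 and Krt17 were seen together in 12 of the 18 (66.7%), in 14.1% of all 184 deep enough Hybrid cells, in 15.7% of wounded and 19.1% of normal Suprabasal, in 10.5% of wounded and 15.0% of normal Rectum and in 5.78% of Regeneration cells. At least 3 UMIs of each were in 180 of 1032 wounded and 40 of 187 normal Suprabasal cells. The same held for 17 of 397 wounded Rectum, 0 of 63 normal Rectum and 43 of 991 Regeneration cells. Krt17 in normal Rectum was at 36.9 CPM, with at most 2 UMIs in a cell. Thinning left out 132 Hybrid cells, which had under 2000 UMIs.

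The remaining Hybrid cells had less Krt8. The 138 cells led by Ndufa4l2, Krt15 and Defb6 (median 1090 UMIs) had 159 CPM of Krt8 (112 to 220) and 34.5 of Krt7, the 60 led by Ccl21a, Krt13 and Fgl2 (median 2160 UMIs, with all 8 endothelial markers detected) had 193 (128 to 278) and 124, and the 41 inner root sheath-like cells led by S100a3, Krt71 and Krt25 had 57.2 (32.0 to 94.3) and 11.4. Krt18 in these 3 groups rested on 4 UMIs each. Depth and the markers of other cell types moved with these values, and their part in them was not tested.

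**Figure D4:**
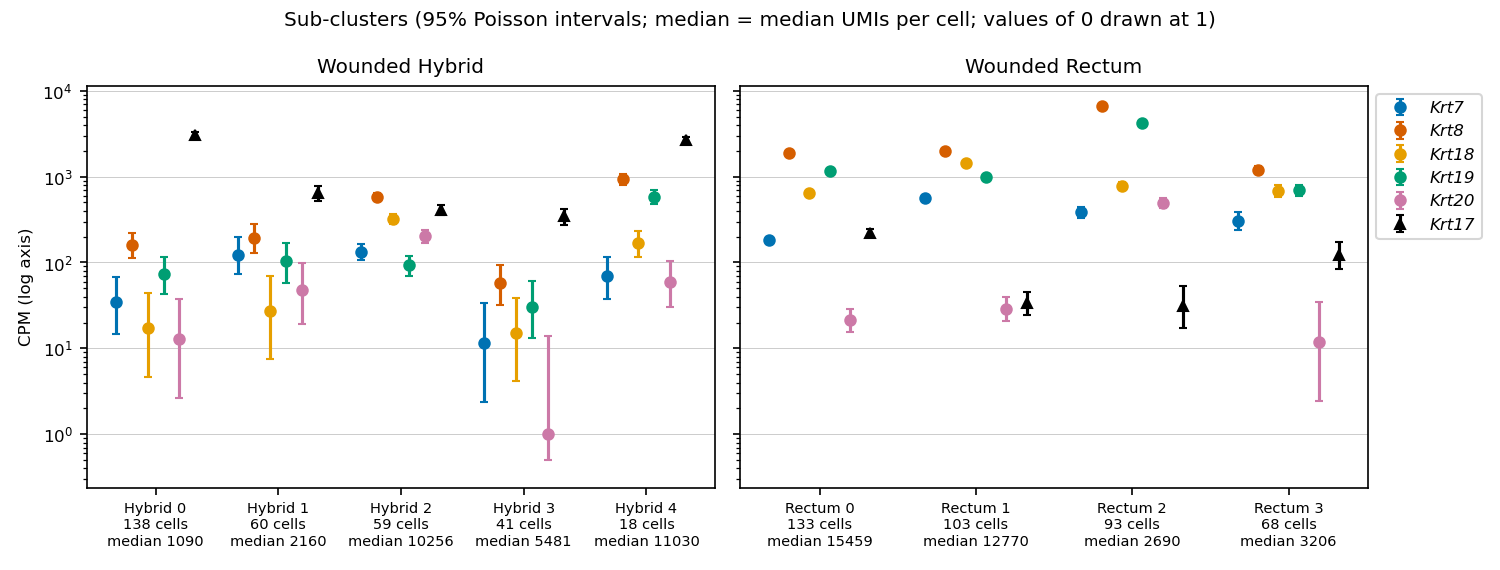
Level of the 5 keratins, and of Krt17 as triangles (CPM, log axis, 0 drawn at 1), in the sub-clusters of wounded Hybrid and wounded Rectum, formed without the 5 genes, with exact Poisson 95% intervals, the number of cells and the median UMIs per cell. Within Hybrid, Krt8 is highest in the 18 Acta2-led cells (928 CPM) and Krt20 in the 59 enteroendocrine-like cells (203 CPM), and within Rectum Krt20 is highest in the 93 Ly6m-led cells (491 CPM). Of the 219 Krt20 UMIs of the Ly6m-led cells, 93 are in 1 cell.

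Rectum, the columnar lining, gave the reference levels. The study named it from genes that included Krt8, and its clusters were formed without holding these keratins out. A high Krt8 level in Rectum was thus partly given by the naming, and the counts below only describe. In the normal library the 5 genes summed to 5811 CPM there against 439 CPM in the other named clusters, a log2 ratio of 3.73 (3.66 to 3.79). The ratios were 5.43 for Krt8, 4.96 for Krt18, 4.32 for Krt19, 1.09 (0.70 to 1.46) for Krt20 and −0.60 (−0.91 to −0.29) for Krt7, so 4 of the 5 were at least 2-fold higher, as were 12.0% of all 7471 genes with at least 100 UMIs. In the wounded library the sum was 5120 against 234 CPM, a ratio of 4.45 (4.41 to 4.49), with 4.83 for Krt8, 5.66 for Krt18, 4.65 for Krt19, 2.35 for Krt20 and 2.44 for Krt7, so 5 of the 5 were at least 2-fold higher, as were 14.4% of all genes. The other named clusters were not the same in both libraries, so these ratios cannot be set side by side. Krt7 in Rectum itself was at 131 CPM in the normal and 336 CPM in the wounded library. Wounded Basal held 379 CPM of Krt7 against 397 in normal Anal Canal, while wounded Suprabasal, Wound_Stress and Regeneration held 1.85 to 7.34 CPM. The part of each in the ratios was not tested.

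The genes that accompany these keratins were counted from fixed lists. All 11 stratified keratins were at least 2-fold lower in Rectum of either library, with medians of −6.47 and −3.75, where the medians of all genes were 0.00 and 0.07 and 16.3% and 14.7% of all genes were 2-fold lower. Of the transcription factors of simple epithelia with enough UMIs, 6 of 9 were at least 2-fold higher in normal and 10 of 13 in wounded Rectum and none lower, among them Cdx1, an intestinal homeobox factor, at 361 CPM in normal Rectum, and Elf3, an epithelial ETS factor, at 214. Of 15 listed partners of keratin filaments, not all of which anchor them to junctions, 8 of the 13 with enough UMIs were lower in normal Rectum. Sfn was among them, as was the desmosome protein desmoplakin (Dsp), at 170 CPM against 281 to 916 in the other normal clusters. In wounded Rectum 7 of the 15 were lower, and the plakophilin Pkp2 was the 1 that was higher, at 30.9 CPM against 1.21 to 5.18 CPM. Of factors of stratified epithelia, 6 of 7 in normal and 4 of 6 in wounded Rectum were lower, Trp63 among them. Of the other listed keratins, Krt79 and Krt80 were lower, 2 of 2 counted in the normal and 2 of 3 in the wounded library. Krt79 was high in Suprabasal, at 6213 CPM there against 22.7 in Rectum of the normal library. In Hybrid over Basal and Suprabasal, where 6.92% of all genes were 2-fold lower, 0 of the 8 listed simple epithelial factors with at least 100 UMIs were 2-fold higher. Of these, 2 were lower, Ehf and Gata6. Ehf was not limited to simple epithelium, at 491 CPM in wounded Suprabasal against 265 in wounded Rectum. Several intestinal factors had too few UMIs to be counted, Cdx1 at 18.9 CPM (12.5 to 27.3) in Hybrid against 1.39 in wounded Basal and 1.81 in wounded Suprabasal, and Foxa2 at 14.2 (8.77 to 21.7) against 0 and 0.17. Over Basal and Suprabasal, Hybrid had 10 of 11 stratified keratins and 2 of 6 stratified factors lower. So were 3 of 3 other listed keratins (Krt23, Krt79 and Krt80) and 2 of 14 filament partners, and no gene of these lists was higher.

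Wounded Rectum was a mixture in which the makeup of the 5 keratins varied. Its 103 goblet-like cells, in which the plasma cell genes Igkc, Jchain and Igha led and all 8 goblet markers were detected, had 1457 CPM of Krt18 (1393 to 1523), 567 of Krt7 (528 to 609) and 1976 of Krt8, and 1.36 Krt8 UMIs per Krt18 UMI (1.28 to 1.44). The 93 cells led by Ly6m, Clca4a and Fxyd4 (median 2690 UMIs) had 6705 CPM of Krt8 (6467 to 6949), 4164 of Krt19 (3977 to 4358) and 491 of Krt20 (428 to 561), with 8.54 Krt8 UMIs per Krt18 UMI (7.64 to 9.57). They held 219 of the 305 Krt20 UMIs of the cluster (71.8%), 93 of them in 1 cell. The 133 cells led by Krt1, Calm4 and Krtdap (median 15459 UMIs, not tested for doublets) had 1865 CPM of Krt8 and 21.2 of Krt20, and the 68 cells led by the collagens Col1a1 and Col3a1 (median 3206 UMIs) had 1200 and 11.9. Normal Rectum, with 63 cells, formed a single cluster.

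Wounded over normal Rectum, the 5 genes summed to 5120 against 5811 CPM, with a log2 ratio of −0.18 (−0.23 to −0.13). That direction depended on the scaling and the cells kept, since the sum was 0.065 and Krt8 0.047 with median-of-ratios size factors and the sum 0.019 in cells under 10% mitochondrial UMIs. Krt7 was higher, at 336 against 131 CPM, a log2 ratio of 1.37 (1.06 to 1.69), and Krt18 at 0.68 (0.54 to 0.84). Krt8 was at −0.20 (−0.27 to −0.13), Krt19 at −0.70 (−0.78 to −0.61) and Krt20 at −0.40 (−0.78 to −0.0025). For Krt20, 1 cell held 93 of the 305 wounded UMIs. Of the 5, 1 was at least 2-fold higher and 0 at least 2-fold lower, where 8.25% and 4.49% of all genes were. Goblet marker RNA moved with these values, summing to 17033 CPM in wounded and 8366 in normal Rectum, and so did stratified keratins, of which 7 of 7 with enough UMIs were at least 2-fold higher, Krt14 at 340 against 95.1 CPM, and the fibroblast markers, at 308 against 2.84 CPM. The part of the goblet and stratified RNA in the Krt7 and Krt18 values was not tested. Without the 68 collagen-led cells the ratios differed by at most 0.08. Of 13 listed simple epithelial factors, Foxa3 and Ehf, the latter also high in stratified clusters, were at least 2-fold higher. None of 12 filament partners was past 2-fold.

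Wounded over normal Basal, the labels joined unlike cells. The sum had a log2 ratio of 1.92 (1.79 to 2.06), Krt7 3.49 (3.19 to 3.81), Krt19 3.14 (2.79 to 3.50), Krt20 0.97 (0.52 to 1.45), Krt8 −1.50 (−1.81 to −1.20) and Krt18 −1.11 (−1.62 to −0.59). So 2 of the 5 were at least 2-fold higher and 2 at least 2-fold lower, where 12.7% and 11.1% of all genes were. Set over normal Anal Canal instead, an alternative chosen after the markers were seen, the sum was −0.13, Krt7 −0.07, Krt8 0.12 and Krt20 −1.26. Without the 5 Chga-rich cells of normal Basal, also chosen afterwards, the sum was 2.94 and Krt18 0.08. Wounded Basal then held 36.2 against 1.499 CPM of Krt20, 234 against 3.75 of Krt19 and 27.5 against 48.7 of Krt8. The count of 2 higher and 2 lower thus depended on those 5 cells. Without them Krt20 was also at least 2-fold higher, and Krt8 and Krt18 were no longer 2-fold lower. Of the stratified keratins, 7 of 11 were at least 2-fold higher, led by upper layer members such as Krt1, Krt4, Krt10 and Krt13, and 2 were lower, Krt15 and Krt17. Of the filament partners, 4 of 13 were higher and 1 lower. Of the listed simple epithelial factors, 3 of 7 were higher (Elf3, Ehf and Foxa1), and Sox2 was the 1 stratified factor of 5 that was higher.

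Wounded over normal Suprabasal, Krt8 was alike within counting error, at 131 against 119 CPM, a log2 ratio of 0.14 (−0.05 to 0.33), and so were Krt18 (0.20, −0.37 to 0.82) and Krt7 (−0.39, −1.08 to 0.36). Krt19 was at 25.4 against 4.82 CPM, a log2 ratio of 2.40 (1.54 to 3.42), and Krt20 at 8.21 against 1.31 CPM, 2.64 (1.05 to 4.95) on 3 normal UMIs. Of the 4 members with at least 100 UMIs, 1 was at least 2-fold higher and 0 lower, where 12.6% and 4.16% of all genes were. Both wounded levels lay under those of wounded fibroblast-like cells (44.5 and 12.7 CPM), and whether the difference is one of expression was not tested. The sum had a ratio of 0.34 (0.17 to 0.51). That direction depended on the cells kept, since the sum turned slightly negative in cells under 10% mitochondrial UMIs. It was smaller by per-cell means and without the cells richest in the 5 genes, and larger with size factors. Of 9 stratified keratins, 2 were higher and 2 lower.

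**Figure D5:**
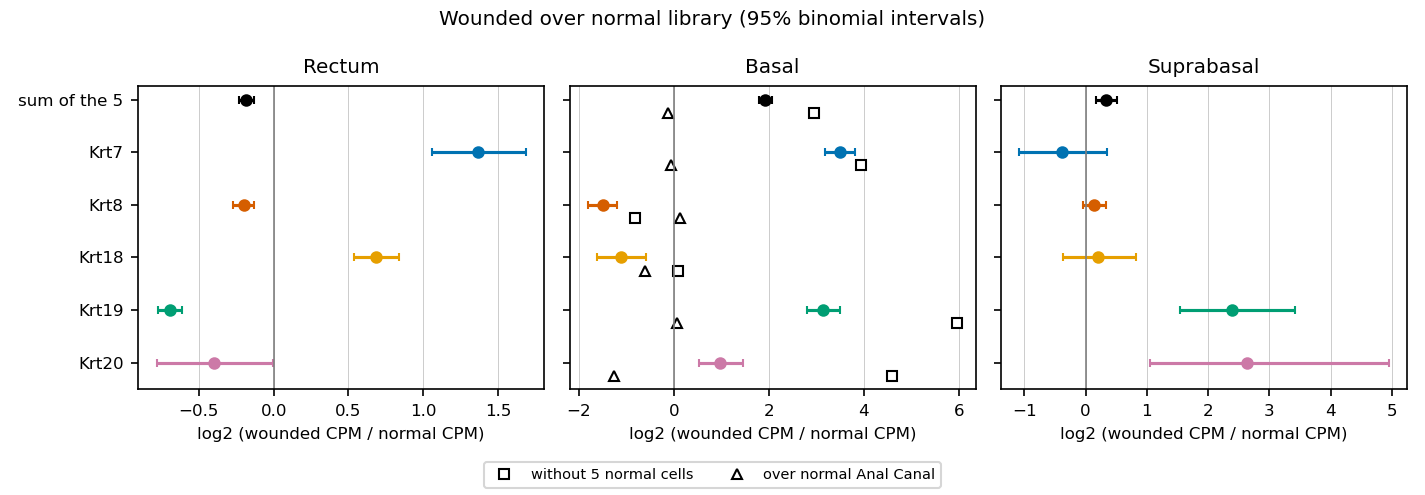
Log2 ratio of the wounded to the normal level for the sum of the 5 keratins and for each gene, in Rectum, Basal and Suprabasal, with exact binomial 95% intervals; open squares leave out 5 cells of normal Basal and open triangles use normal Anal Canal in place of normal Basal. In Rectum only Krt7 passes a log2 ratio of 1 (1.37), and in Basal the ratio of Krt7 goes from 3.49 to −0.07 when Anal Canal takes the place of Basal.

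The cells in no named cluster were low in these genes. Together they had 30.2 CPM of Krt8 (26.0 to 35.0) and 2.51 of Krt7 in the normal library and 32.8 (29.6 to 36.2) and 7.16 in the wounded library. The 330 normal anal gland-like cells, led by the lipid genes Scd3, Retn and Elovl3, had 30.4 CPM of Krt8 (25.2 to 36.3), 6.73 of Krt19 and 1.74 of Krt7, and 425 such wounded cells had 11.5 (9.04 to 14.4), 5.29 and 1.36. The 186 normal hair follicle-like cells, led by Scrg1, Lhx2 and Tbx1, had 38.8 CPM of Krt8 (29.1 to 50.8). Among 42 left-out wounded cells that fell with wounded Basal, 1 cell held all 46 Krt7 and 66 of the 72 Krt19 UMIs, so the pair also met in a cell that the table had dropped. In 103 smooth-muscle-like wounded cells Krt8 was at 45.5 CPM (31.2 to 64.3) and Krt19 at 32.7, and in 33 left-out cells with endothelial markers Krt7, Krt18 and Krt20 had 0 UMIs of 184872.

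Over the 10 named clusters, Krt8 and Krt18 followed each other with a Pearson correlation of 0.94 on the log2(CPM + 1) scale, Krt19 and Krt20 with 0.89 and Krt7 and Krt20 with 0.84, while Krt7 and Krt8 had 0.30. Of 7433 genes with at least 100 UMIs in each library, the most like Krt7 were Pla2g4a (0.97), Ly6a (0.97) and Ly6c1 (0.95). The most like Krt8 were Akr1c12 (0.99), Degs2 (0.98) and Creb3l1 (0.98), and the most like Krt18 were Cd177 (0.98), Tstd1 (0.98) and Tspan13 (0.98). For Krt19 these were Crip1 (0.98), Plac8 (0.98) and Elf3 (0.98), and for Krt20 Eef1akmt1 (0.96), Amdhd2 (0.96) and Med27 (0.95). The 10 points come from 2 libraries and share their depth and stray RNA, so these values only describe.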

How the data were processed

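Cells were sequenced with the 10x Genomics 3′ protocol, and UMI counts of each barcode were deposited as Cell Ranger wrote them (3.1.0 in the normal header, 4.0.0 in the wounded; mm10), without normalization. Per the file headers, the authors' tables give the named cells, their clusters and natural log values whose origin is unstated, ln(1 + n) of whole numbers n. Those values served only as an alternative. Barcodes passed with over 200 and under 5000 genes and under 25% mitochondrial UMIs, as the study states, and 1 named normal cell did not pass. Counts were summed per cluster with scipy 1.17.1, with Poisson intervals for levels, binomial intervals for ratios and Clopper-Pearson intervals for shares, all exact at 95%. Ratios were read at 2-fold over genes with at least 100 UMIs. Shares were computed on cells thinned to 2000 UMIs. Sub-clusters were made with Seurat 5.3.0 as in the study (2000 variable features, 10 components, resolution 0.2), without the 5 genes. No doublet caller was run; the sort gated doublets before droplets were made, so droplets with more than 1 cell were not tested for. The interval of the ratios was run on simulated independent Poisson counts. Those lack the uneven spread of UMIs over cells seen here, so the run speaks to counting error only. The members, lists and comparisons were chosen with earlier results of these data known, and genes are named by a fixed rule: the members, the lists, the 3 genes most like each member, Krt17, and the 5 leading genes of each sub-cluster, plus those said to have been chosen afterwards; 1 leading gene is not reported here. Muc13, Krt10 and the other marker genes come from the marker lists. Sequences are from RefSeq, with entries for 4 of the 5 members.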

Additional observations from a re-analysis of the deposited data

Results flagged for a closer look

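Barcodes that failed the filters, 1015 in the normal and 11991 in the wounded library, held the 5 keratins at summed levels of 1305 CPM and 1326 CPM, where all left-out cells that passed the filters had 45.6 and 75.8 CPM. These barcodes enter no comparison of the report, and their median share of mitochondrial UMIs was 75.3% in the normal and 60.1% in the wounded library. Krt8 was at 550 CPM (514 to 588) in the normal and 653 CPM (644 to 662) in the wounded failing barcodes, Krt19 at 507 and 378, Krt18 at 129 and 132, Krt20 at 44.3 and 113, and Krt7 at 75.1 and 49.7. Krt8 UMIs per Krt19 UMI numbered 1.09 (0.98 to 1.20) in the normal and 1.73 (1.69 to 1.77) in the wounded failing barcodes, where Rectum had 1.21 (1.13 to 1.29) and 1.71 (1.65 to 1.76) and fibroblast-like cells of the wounded library 1.51 (1.11 to 2.08). The source of these UMIs was not tested.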

How the results depend on the processing

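The alternatives were scaling by median-of-ratios size factors, totals without mitochondrial genes, mean per-cell CPM, cells under 10% mitochondrial UMIs, cells with at least 5000 UMIs, leaving out the 1% of cells richest in the 5 genes, and the authors' whole numbers. No paired analysis was possible because each library is 1 sample and no result comes from a test, and no replicate could be left out. The summed log2 ratio of normal Rectum (3.73) became 3.6 with size factors, 3.63 under 10% mitochondrial UMIs and 3.97 without the richest cells. That of wounded Rectum (4.45) became 4.26, 4.63 and 4.78 under the same 3 settings, and 4.49 without mitochondrial genes, 4.2 by per-cell means, 4.51 in deep cells and 4.27 with the authors' numbers. That of Hybrid (1.41) became 1.21, 1.55 and 1.56 under these 3, and 0.99 by per-cell means, 1.72 in deep cells, 0.80 with the authors' numbers and 0.85 without the enteroendocrine-like cells, and Krt19 there turned to −0.37 under 10% mitochondrial UMIs and −0.0057 with the authors' numbers. Wounded over normal Rectum (−0.18) turned to 0.065 with size factors, with Krt8 at 0.047, and to 0.019 under 10% mitochondrial UMIs, and was −0.13 without mitochondrial genes, −0.50 by per-cell means and −0.43 with the authors' numbers. Wounded over normal Basal (1.92) became 2.17, 2.25 and 2.31 under the same 3, and 1.67 by per-cell means, 1.70 with the authors' numbers and 2.94 without 5 normal cells, with Krt18 at 0.081. Over normal Anal Canal it was −0.13, with Krt7 at −0.067, Krt8 at 0.12 and Krt20 at −1.26. Wounded over normal Suprabasal (0.34) became 0.52, −0.037 and 0.10 under these, and 0.086 by per-cell means. Apart from the choices of cells, the cause was not tested. Of 210 single-gene ratios under these settings, 139 moved by less than their interval, 68 by more and 3 turned. Of the summed ratios, 12 moved by less, 27 by more and 3 turned. With cells thinned to 1000 or 5000 UMIs in place of 2000, 67 of the shares moved and 33 did not, so the shares hold for the stated depth. Counting genes from 20 UMIs raised the share at least 2-fold higher in Hybrid from 9.48% to 16.7%, and wounded Basal fell into 5 sub-clusters at resolution 0.4. With 1 library a condition, animals, preparation and Cell Ranger version cannot be told apart from the wound.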
